A study of Mus musculus with 11 samples.

Results

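Inhibitory receptors other than LAG-3 were followed in precursor exhausted CD8 T cells after LAG-3 blockade. They were chosen by name, with earlier results of these data known, as 10 of the 32469 gene symbols in the count table, namely Pdcd1, Ctla4, Tigit, Cd160, Havcr2, Btla, Cd200, Entpd1, Cd96 and Cd101. Of these, 8 passed the filter on low counts (at least 10 counts at the median depth, or 17.7 CPM, which are counts scaled to library depth, in 5 or more libraries), as did 6949 genes in all. Havcr2 and Entpd1 did not pass. All 10 are called receptors here for short, though Cd200 encodes a ligand and Entpd1 an enzyme, as described below.

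The RNA came from wild-type C57BL/6 mice carrying Lewis lung carcinoma (LLC), a mouse lung cancer cell line, under the skin of both flanks. Of 11 mice, 6 received the LAG-3-blocking antibody C9B7W by intraperitoneal injection, 200 µg on day 14 and again on day 16, and 5 were left untreated. No isotype control antibody is described for the untreated mice, so an effect of injected antibody as such and of LAG-3 blockade cannot be told apart. By the methods, the left flank tumor was removed surgically on day 14 and the right flank tumor on day 18, whereas the deposited description gives day 21 for the second. The cells are described as taken after LAG-3 blockade, hence from the second tumor of mice that had undergone surgery. The sort kept cells positive for CD8, PD-1 and Ly108 and negative for TIM-3, among other gates, with a library from each mouse. Because PD-1 and TIM-3 were used as gates, the levels of Pdcd1 and Havcr2 are those of cells selected on their proteins.

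Inhibitory receptors dampen T cell activation when they meet their ligands on tumor cells or antigen-presenting cells. Several are expressed together on T cells that have seen antigen for a long time, a state called exhaustion. Precursor exhausted cells are the self-renewing part of that population, and they give rise to terminally exhausted cells that carry TIM-3 and CD39. Several of these receptors compete with, or share a ligand with, a receptor of opposite effect. TIGIT and CD96 compete with CD226 for CD155, CTLA-4 competes with CD28 for CD80 and CD86, and BTLA and CD160 both bind HVEM.

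Total counts ranged from 317449 to 1271063 in untreated libraries and from 313524 to 1901374 in anti-LAG-3 libraries, so that 3 counts, the floor used here, were worth 1.58 to 9.57 CPM of total counts. Depth went with the primer barcode of the library, with a median of 1141450.5 counts in the 6 libraries of barcode 9 (3 of each group) and 411796.5 in the 4 of barcode 8 (1 untreated and 3 anti-LAG-3). The remaining untreated library had barcode 10. The mean level of Cd8a was 1191 CPM (SD 31.2, n = 5) without and 1206 CPM (SD 90.6, n = 6) with the antibody, and that of Slamf6, which encodes Ly108, was 111 ± 10.6 and 97.5 ± 14.2 CPM. Across groups, the summed markers lay at 0 to 3.19 CPM of total counts for 3 NK cell genes (Klra8 at 0 in every library) and at 9.57 to 31.8 CPM for 5 dendritic cell genes (Clec9a at 0). The 4 epithelial tumor genes summed to 2.36 to 12.6 CPM, the 5 CD8 T cell genes to 4606 to 5148 CPM and the 5 CD4 and regulatory T cell genes to 168 to 258 CPM. Most of the last sum came from Il2ra and Ikzf2, and Cd4 and Foxp3 had 4 and 2 counts over all libraries. The 8 myeloid genes, none of them at 0 in all libraries, summed to 43.3 to 78.8 CPM in untreated and 46.1 to 160 CPM in anti-LAG-3 libraries. The part of such cells in the results was not tested.

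None of the 8 receptors tested differed between the groups after adjustment for the genes tested, and Havcr2 and Entpd1 were not in this test. With edgeR's quasi-likelihood test, 0 of the 6949 genes (0.0%) had an adjusted p under 0.05, and each of the 8 tested receptors had an adjusted p of 0.999. Before adjustment, 259 genes (3.73%) had a p under 0.05, of which 121 were higher after anti-LAG-3 (1.74%) and 138 were lower (1.99%). The likelihood ratio test gave 307 genes and DESeq2 163 at the unadjusted threshold, with 0 adjusted calls each. Among the receptors, Btla lay on the higher side of this threshold and Pdcd1 on the lower. Counted at any p, 4 of the 8 were lower after anti-LAG-3, as were 48.9% of all genes tested. The groups overlapped for each of the 10 receptors, against 33 genes (0.475%) whose groups did not overlap among those tested. The median log2 fold change of the 8 tested receptors was -0.006, beside 0.004 for all genes tested. In bulk RNA, fewer cells of a type and less RNA per cell cannot be told apart.

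**Figure D1:**
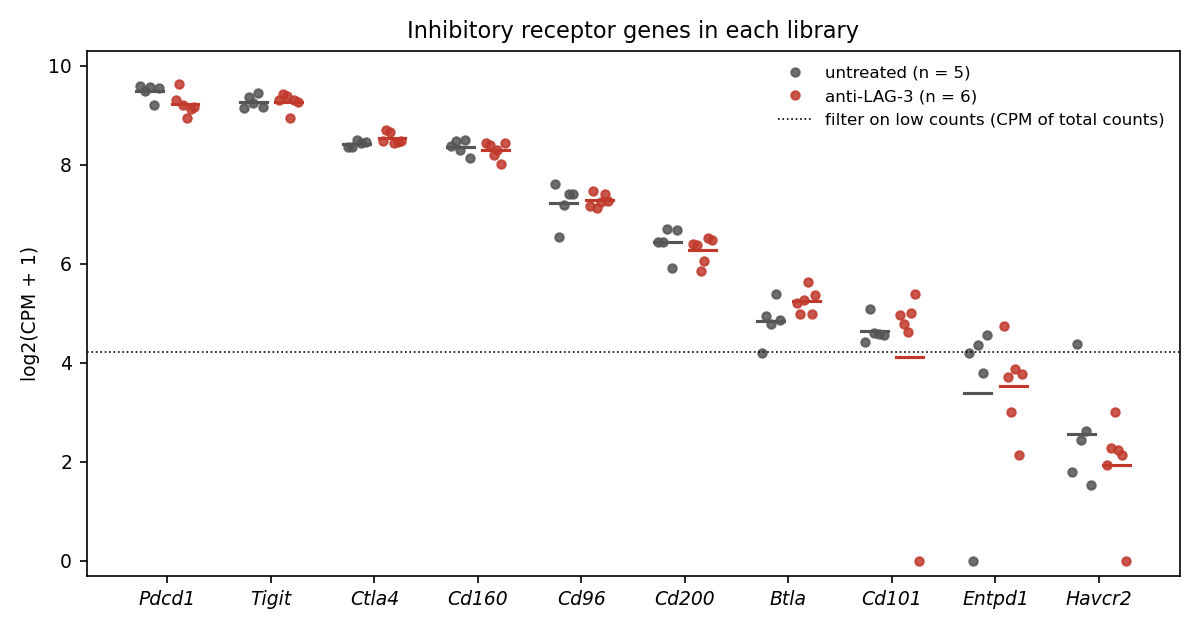
Level of each inhibitory receptor gene in each library, as log2(CPM + 1), with untreated mice in grey (n = 5), anti-LAG-3 mice in red (n = 6) and group means as bars; the dotted line is the filter level of 17.7 CPM. The groups overlap for each gene, and single libraries lie at 0 for Cd101, Entpd1 and Havcr2.

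The receptors spanned a wide range of levels, which were compared per kilobase of the longest coding transcript in the GENCODE M21 annotation. In untreated mice Tigit was highest at 674 ± 60.9 CPM per kilobase (SD, n = 5), followed by Pdcd1 at 371 ± 37.2 and Ctla4 at 177 ± 7.87. Cd160 lay at 127 ± 12.9 CPM per kilobase, Cd96 at 70.3 ± 17.5 and Cd200 at 37.0 ± 7.48. Each of these was above the next in each of the 11 libraries on this scale. Without the length scaling, Pdcd1 was above Tigit in untreated mice (716 and 619 CPM) and near it after anti-LAG-3 (605 and 621 CPM). Ctla4 was then above Cd160 by group means but below it in untreated mice 1, 2 and 4. Btla (8.78 ± 2.61 CPM per kilobase) and Cd101 (7.41 ± 1.48) did not differ beyond their spread, nor did Entpd1 (3.42 ± 2.09) and Havcr2 (2.48 ± 2.72). Where reads fall along a transcript is not stated in the sources used here. By the methods, the sample barcode was added at an end of the cDNA before it was fragmented. Reads may thus gather at that end, so whether scaling by length applies is uncertain. For comparison, Lag3 itself was read at 249 ± 15.9 CPM per kilobase, between Pdcd1 and Ctla4.

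By counts, Pdcd1, Tigit, Ctla4 and Cd160 together held 86.4% ± 1.46 (SD, n = 5) of the reads on the 10 receptors in untreated mice and 85.9% ± 1.54 (SD, n = 6) after anti-LAG-3. The sum over the 10 receptors was 2212 ± 31.3 CPM of total counts in untreated mice, with a range of 2164 to 2249, and 2110 ± 195 after anti-LAG-3, with a range of 1857 to 2443. Of the anti-LAG-3 libraries only mouse 2 lay above the untreated range and mouse 1 inside it (2179), while the others lay below it, at 1857 to 2087. Ctla4 held 14.0% to 15.3% of these reads in untreated and 15.6% to 18.2% in anti-LAG-3 libraries. These shares were singled out after their values were seen and carry no test, and because the shares sum to a whole, each depends on the other members.

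PD-1, encoded by Pdcd1, binds PD-L1 and PD-L2 and recruits the phosphatase SHP-2. Pdcd1 was read at 767, 718.5, 756, 592 and 747 CPM in untreated mice 1 to 5. In anti-LAG-3 mice 1 to 6 it was read at 634, 787, 588, 489, 555 and 575 CPM. In 4 of 5 untreated mice it was above all anti-LAG-3 mice except mouse 2, which was the highest of all libraries, and untreated mouse 4 lay among the anti-LAG-3 values. Group means were 716 ± 71.8 (SD, n = 5) and 605 ± 101.2 CPM (SD, n = 6), which differed by -0.24 ± 0.10 on the log2 scale (SE, edgeR quasi-likelihood test, unadjusted p = 0.0214, adjusted p = 0.999). The 95% interval of the fold ran from 0.74 to 0.97. A difference of this size or larger, in either direction, was found for 1369 genes, or 19.7% of those tested. That share includes genes with fewer counts and larger errors. By unadjusted p, Pdcd1 ranked 104 among the genes tested. Within the 6 barcode 9 libraries it was -0.24 (unadjusted p = 0.0575), and with primer barcode as a covariate -0.18 (unadjusted p = 0.0731). Leaving out anti-LAG-3 mouse 4 gave -0.18 (unadjusted p = 0.0684) and leaving out untreated mouse 1 gave -0.21 (unadjusted p = 0.0588), so that the unadjusted threshold was no longer passed. Leaving out anti-LAG-3 mouse 2 gave -0.35 (unadjusted p = 0.000429, adjusted p = 0.387).

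BTLA, an immunoglobulin-family receptor for HVEM, differed most in fold among the 8 receptors tested. Btla was read at 17.2, 29.7, 26.7, 40.98 and 28.1 CPM in untreated mice 1 to 5. In anti-LAG-3 mice 1 to 6 it was read at 36.1, 30.8, 37.8, 48.4, 30.4 and 40.3 CPM. All 6 anti-LAG-3 mice were above 4 of the 5 untreated mice, and untreated mouse 4 was higher than all of them but mouse 4. The log2 fold change was 0.49 ± 0.22 (SE, unadjusted p = 0.0375, adjusted p = 0.999, edgeR quasi-likelihood test), with a 95% interval of the fold from 1.02 to 1.93. Differences at least as large were found for 147 genes (2.12%). The receptor rests on 265 counts over the 11 libraries. With primer barcode as a covariate the log2 fold change was 0.48 (unadjusted p = 0.0548), and DESeq2 gave 0.47 (unadjusted p = 0.0759), neither of which passed the unadjusted threshold. Without untreated mouse 1 it was 0.29 (unadjusted p = 0.217), without anti-LAG-3 mouse 4 it was 0.38 (unadjusted p = 0.115), and within barcode 9 it was 0.67 (unadjusted p = 0.0209).

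**Figure D2:**
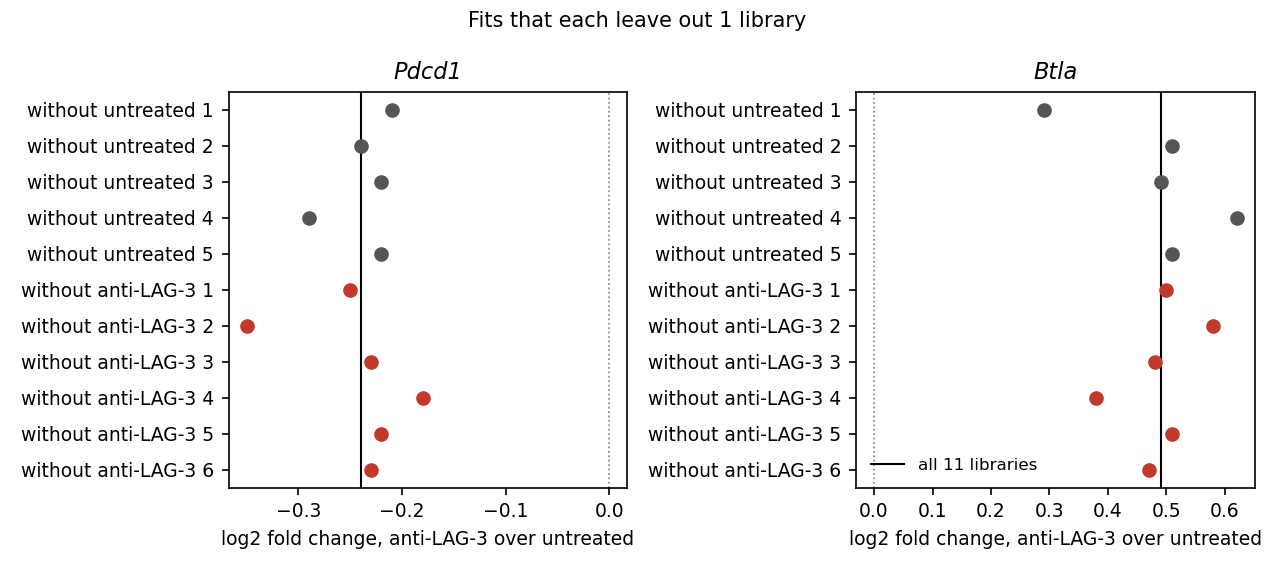
Log2 fold change of Pdcd1 and Btla (anti-LAG-3 over untreated, horizontal axes) in 11 fits that each leave out the library named on the left; grey points leave out an untreated and red points an anti-LAG-3 library, and the black line is the value with all 11. Pdcd1 ranges from -0.35 to -0.18 and Btla from 0.29 to 0.62.

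Tigit, Ctla4 and Cd160 followed Pdcd1 in the number of counts. TIGIT binds CD155 and competes with CD226. Tigit was read at 563, 659, 604, 694 and 576 CPM in untreated mice 1 to 5 and at 489 to 685 CPM (median 634) after anti-LAG-3, where mouse 4 was the lowest library. Its log2 fold change was 0.01, with a 95% interval of the fold from 0.89 to 1.14. CTLA-4 takes up the CD28 ligands CD80 and CD86. Ctla4 was read at 325, 326, 360, 346 and 351 CPM in untreated mice and at 346 to 415 CPM (median 355) after anti-LAG-3, where mice 2 and 3 were above the rest. Its log2 fold change was 0.12 (unadjusted p = 0.152), with a fold between 0.97 and 1.23. CD160, a receptor for HVEM and class I MHC, was read at 331, 356, 314, 361 and 280 CPM in untreated mice and at 257 to 345 CPM (median 324) after anti-LAG-3. Its log2 fold change was -0.04, with a fold between 0.85 and 1.12.

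The less abundant receptors had wider intervals. CD96 binds CD155, as TIGIT does. Cd96 was read at 193, 92.3, 144, 169 and 169 CPM in untreated mice and at 139 to 175 CPM (median 152) after anti-LAG-3, so the whole anti-LAG-3 range lay inside the untreated range (log2 fold change -0.03, fold between 0.82 and 1.18). CD200 is the ligand of the inhibitory receptor CD200R1 and is itself carried by activated T cells. Cd200 was read at 86.2, 85.7, 102, 58.9 and 101.3 CPM in untreated mice and at 56.6 to 91.3 CPM (median 82.7) after anti-LAG-3 (log2 fold change -0.20, unadjusted p = 0.203, fold between 0.71 and 1.08). The lowest libraries were untreated mouse 4 and anti-LAG-3 mouse 3, 1 in each group. CD101 is an immunoglobulin-family protein that appears on more differentiated exhausted cells. Cd101 was read at 20.5, 33.0, 23.1, 23.1 and 22.5 CPM in untreated mice and at 30.4, 26.4, 23.6, 31.0, 40.6 and 0 CPM after anti-LAG-3. The other libraries' rate predicts 11.4 counts in anti-LAG-3 mouse 6, where 0 were found, which allows up to 7.21 CPM of total counts. The fitted log2 fold change was 0.16 ± 0.31 (SE, unadjusted p = 0.6, edgeR), with a fold between 0.72 and 1.73. It was 0.32 without that library (unadjusted p = 0.162) and between 0.085 and 0.099 without untreated mouse 1 or anti-LAG-3 mouse 1, 4 or 5.

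Havcr2, encoding TIM-3, was near the floor, in cells that had been sorted as TIM-3 negative. It had 34 counts in all and was at or under 3 counts in 8 of 11 libraries, with 0 in anti-LAG-3 mouse 6. It was read at 2.46, 19.8, 4.45, 5.12 and 1.88 CPM in untreated mice and at 0 to 7.08 CPM (median 3.55) after anti-LAG-3. Untreated mouse 2, the single library of barcode 10, was the highest. Summed over libraries the level was 4.55 CPM of total counts (95% exact Poisson interval 2.65 to 7.28) in untreated and 3.38 CPM (1.97 to 5.41) in anti-LAG-3 mice, where the intervals cover counting error only. With no filter on low counts the log2 fold change was -0.48 ± 0.60 (SE, edgeR quasi-likelihood, adjusted p = 0.843), and it was 0.05 without untreated mouse 2, so no difference was detectable at this depth.

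Entpd1 encodes CD39, which breaks down extracellular ATP and supplies AMP to CD73 for the making of adenosine. It had 129 counts in all and reached the filter level in 3 libraries, and 3 libraries were at or under the floor. It was read at 17.2, 0, 19.6, 12.8 and 22.5 CPM in untreated mice and at 25.6, 12.1, 7.08, 13.7, 3.38 and 12.6 CPM after anti-LAG-3. The library at 0, untreated mouse 2, would hold 5.57 counts at the rate of the others. Levels summed over libraries were 16.1 CPM of total counts (95% exact Poisson interval 12.3 to 20.7) and 13.7 CPM (10.7 to 17.3), and the unfiltered log2 fold change was -0.20 ± 0.32 (SE, edgeR quasi-likelihood, adjusted p = 0.893). Single libraries moved it, to -0.58 without anti-LAG-3 mouse 1 (unadjusted p = 0.114), to -0.38 without untreated mouse 2 and to -0.09 without untreated mouse 3.

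**Figure D3:**
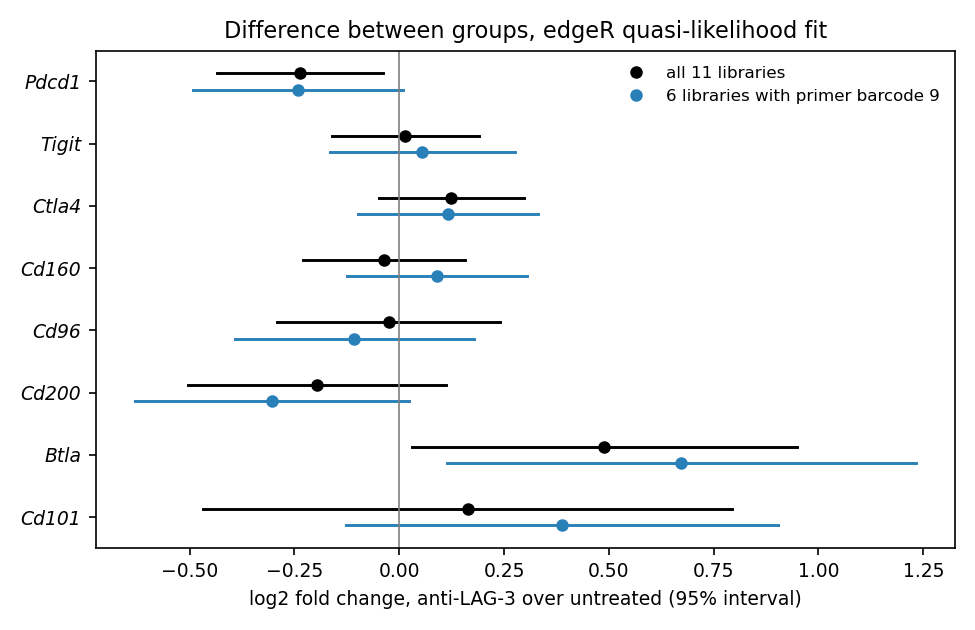
Log2 fold change (anti-LAG-3 over untreated, horizontal axis) of the 8 tested receptors from the edgeR quasi-likelihood fit, with 95% intervals that are not adjusted for multiple testing; black uses all 11 libraries and blue the 6 of primer barcode 9. With all libraries the intervals of Pdcd1 and Btla lie to one side of 0 and the other 6 span it.

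Ratios of a receptor to a partner gene within a library do not depend on normalization between libraries, and 6 were compared. The ratio of Tigit to Cd226, its competitor for CD155, was 3.94, 4.57, 4.15, 3.89 and 4.60 in untreated mice 1 to 5 and 3.57, 4.12, 4.07, 2.58, 3.05 and 3.50 in anti-LAG-3 mice 1 to 6. All 6 anti-LAG-3 mice were below the untreated median on the log2 scale, though mice 2 and 3 lay inside the untreated range. The log2 ratio was lower by a mean of -0.30 (exact two-sided permutation test, p = 0.0346, 0.208 after Benjamini-Hochberg adjustment over the 6 ratios), so it did not pass the correction. Without single libraries the difference was -0.35 to -0.21, with an exact permutation p of 0.0238 to 0.0905. Within barcode 9 the difference was -0.33 (exact permutation p = 0.2, where 0.1 is the smallest p possible). Cd226 itself had means of 146 (SD 19.2, n = 5) and 179 CPM (SD 16.2, n = 6) and a log2 fold change of 0.29 (edgeR unadjusted p = 0.0125, adjusted p = 0.999), beside 0.01 for Tigit.

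The ratio of Pdcd1 to Lag3, the gene of the blocked receptor, lay between 1.21 and 1.65 in untreated mice and between 1.00 and 1.44 after anti-LAG-3, a log2 difference of -0.22 (exact permutation p = 0.0823, adjusted 0.247). Lag3 was read at 499 ± 31.7 (SD, n = 5) and 490 ± 59.5 CPM (SD, n = 6), with a log2 fold change of -0.02 (edgeR adjusted p = 0.999). Cd96 to Cd226 differed by -0.25 on the log2 scale (exact permutation p = 0.223, adjusted 0.446), and the value depended on single libraries. It was -0.41 without untreated mouse 2 (exact permutation p = 0.0143, adjusted 0.0857) and -0.15 without untreated mouse 1 or mouse 5 (exact permutation p = 0.467 each). Ctla4 to Cd28 differed by 0.05 (exact permutation p = 0.764, adjusted 0.764). Btla and Cd160, set against Tnfrsf14, the gene of their shared ligand HVEM, differed by 0.22 and -0.25 (exact permutation p = 0.574 and 0.45, adjusted 0.689 and 0.675). Tnfrsf14 did not pass the filter, at 13.2 ± 6.49 (SD, n = 5) and 14.8 ± 4.60 CPM (SD, n = 6).

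**Figure D4:**
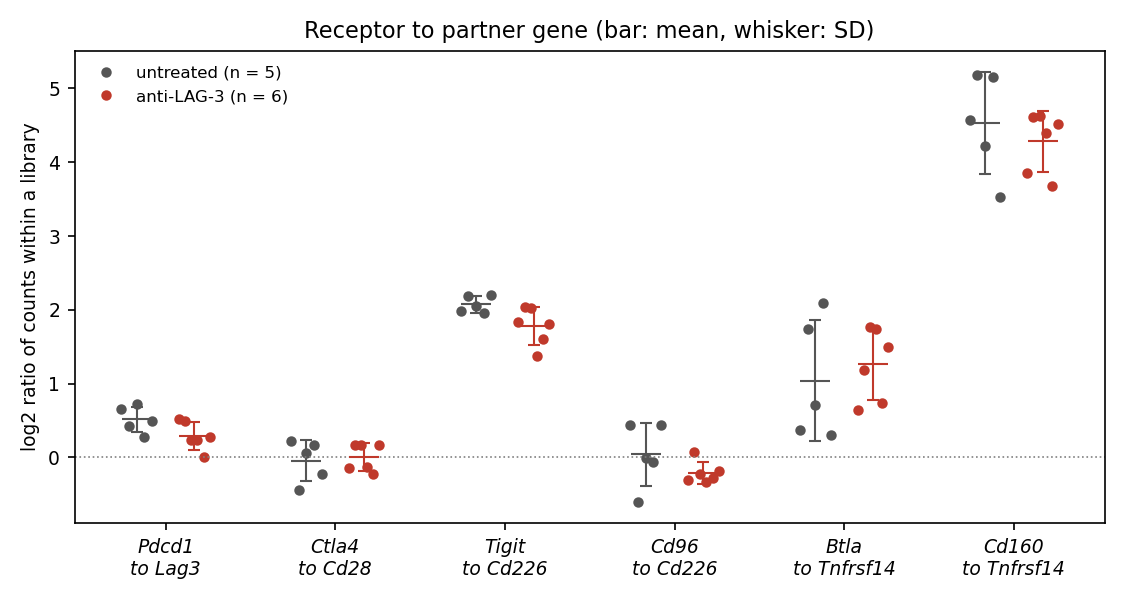
Log2 ratio of receptor counts to partner gene counts within each library (vertical axis; 1 count added to each) for 6 pairs, untreated in grey (n = 5) and anti-LAG-3 in red (n = 6), with mean and SD. Tigit to Cd226 is lower by a mean of -0.30 after anti-LAG-3, and the groups overlap in each pair.

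Across the 11 libraries the 8 tested receptors did not rise and fall as a block. Of 28 pairs, 15 had a Pearson r above 0 and 13 below it (median 0.02), and 0 passed adjustment over the pairs. Pdcd1 and Btla had the strongest relation, with r = -0.78 (permutation p = 0.00324, adjusted 0.0907) and Spearman's rho = -0.71 (permutation p = 0.0185, adjusted 0.323). It was -0.76 without the 2 libraries farthest from the median of Pdcd1, -0.81 in the 6 libraries of barcode 9, and -0.68 after each group was centred on its mean. Both genes also lay past the unadjusted threshold between the groups, in opposite directions, which adds to the pooled value.

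**Figure D5:**
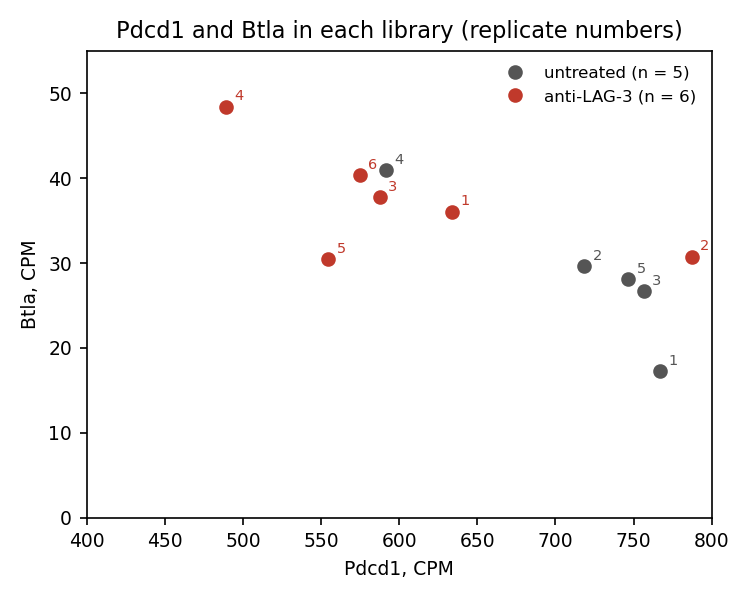
Pdcd1 (horizontal axis) against Btla (vertical axis), both in CPM, in each library with its replicate number, untreated in grey (n = 5) and anti-LAG-3 in red (n = 6). Untreated mouse 4 lies among the anti-LAG-3 mice and anti-LAG-3 mouse 2 has the highest Pdcd1.

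Other genes of these pathways were read from lists of ligands, signaling proteins and further receptors. Of 15 ligands and partners, 8 passed the filter and 0 had an unadjusted p under 0.05, where 3.73% of all genes tested did. Lists this short would often hold no such gene at that share, so a count of 0 says nothing particular about them. The smallest p values belonged to Cd274, encoding PD-L1 (55.6 ± 7.63 and 40.9 ± 15.2 CPM, log2 fold change -0.28, edgeR quasi-likelihood test, unadjusted p = 0.178), and Pdcd1lg2, encoding PD-L2 (-0.19, edgeR unadjusted p = 0.184). Of 11 proteins that carry or regulate the receptors' signals, 10 were tested and 0 passed the unadjusted threshold. Ptpn6, encoding the phosphatase SHP-1, had a log2 fold change of 0.20 (edgeR unadjusted p = 0.0795) and Fyn, a Src-family kinase, of -0.22 (unadjusted p = 0.119). Of 9 further inhibitory receptors 5 were tested and 0 passed. Klrc1, encoding NKG2A, was read at 915 ± 56.1 (SD, n = 5) and 942 ± 91.3 CPM (SD, n = 6), and Cd5, a negative regulator of T cell receptor signaling, at 162 ± 37.2 and 182 ± 17.1 CPM. A list of 4 opposing receptors included Tnfrsf14, the HVEM gene, which is also counted among the ligands above. Of these 4, 3 were tested and 1, Cd226, was past the unadjusted threshold, beside 3.73% of all genes tested.

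The positions of the genes, on GRCm38 as given by GENCODE M21, place 4 of the 10 receptors on chromosome 16. Tigit (chr16:43648867-43664146, minus strand), Btla (chr16:45224315-45257670, plus strand), Cd200 (chr16:45382135-45409053, minus strand) and Cd96 (chr16:46035657-46120251, minus strand) lie within 2.47 Mb. Btla and Cd200 are 124.5 kb apart, and their log2 fold changes were 0.49 and -0.20. Pdcd1 and Ctla4 are on chromosome 1, Cd160 and Cd101 on chromosome 3, Havcr2 on chromosome 11 and Entpd1 on chromosome 19. Other genes share 4.37% of the 50-base stretches of Tigit and 0.516% of those of Havcr2, the latter with 509 genes. How many of their reads fall on such stretches was not measured, which leaves their counts uncertain. Cd160 shares 0.72% and overlaps Pdzk1 on the opposite strand. Ctla4 and Entpd1 overlap other gene models on their own strand.

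Promoter windows of RefSeq, from 250 bases before to 50 after each transcription start on GRCm38.p6, were matched for all 10 receptors, in 12 windows. Of 5 short motifs searched on both strands, TGTGGT, a core sequence bound by RUNX factors, was in 8 of 12 windows (66.7%) and in 7 of 10 genes. It was in 16.8% of all 32851 windows and in 12.6% of 6357 windows of genes tested here. This motif was singled out after the matches were seen, and a match is a description of letters, not a binding site. The other motifs were GGAAA, the NFAT core (58.3% of the 12 windows and 61.3% of all), CTTTGA of TCF-1 (16.7% and 16.0%), TGANTCA of AP-1 (8.3% and 7.8%) and TATAAA (16.7% and 13.6%). The matches that lie upstream of a start are shown as examples, each written 5′ to 3′ on the strand of its gene with 20 bases on either side and the motif, or its reverse complement ACCACA, in capitals.
Tigit (chr16:43664299-43664344, minus strand): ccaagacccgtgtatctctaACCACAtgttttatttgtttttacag
Cd96 (chr16:46120251-46120296, minus strand): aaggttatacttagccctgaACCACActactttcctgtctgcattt
Btla (chr16:45224139-45224184, plus strand): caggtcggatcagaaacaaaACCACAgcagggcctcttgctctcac
Havcr2 (chr11:46454865-46454910, plus strand): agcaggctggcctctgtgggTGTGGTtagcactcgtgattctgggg
Cd101 (chr3:101029577-101029622, minus strand): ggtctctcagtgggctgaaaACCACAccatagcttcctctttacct
Cd160 (chr3:96829402-96829447, minus strand): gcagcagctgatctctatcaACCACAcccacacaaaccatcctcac
Cd160 (chr3:96814597-96814642, minus strand): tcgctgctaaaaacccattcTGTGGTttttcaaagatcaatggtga
The motif lies 28 to 178 bases upstream of the start in these stretches. Genes with it (Tigit, Havcr2) lie at both ends of the order of levels per kilobase, and Pdcd1 and Ctla4, without it, are near the top.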

How the data were processed

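Bulk RNA-seq was measured in 11 libraries, 1 per mouse. The authors trimmed reads with cutadapt and mapped them to GRCm38 reference RNA with Bowtie2 (versions 4.1 and 2.4.5 in the submitters' processing notes, while the paper's methods name other versions), and deposited raw counts per gene symbol, without normalization. Handling of multimapping reads and strand is not given in the sources used here. Columns were matched to samples by title. The counts were tested with edgeR 4.0.16 in R 4.3.3 (filterByExpr, TMM, quasi-likelihood test, Benjamini-Hochberg over 6949 genes, threshold 0.05). CPM uses TMM-scaled sizes of the genes tested, which held 95% to 95.3% of counts, unless called CPM of total counts. That choice of size was made after both versions had been computed, and sizes over all symbols were added as an alternative. SE is the log2 fold change over the square root of F. DESeq2 1.42.0 and other normalizations, filters, barcode fits and left-out libraries were alternatives. Correlations use log2 CPM with a prior count of 2 and 100000 permutations. The tests were checked on simulated data.

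The receptors and gene lists were chosen with earlier results of these data known. Named genes are the receptors, Lag3, ratio partners, sort markers, the 2 tested genes of each list with the smallest p, and the gene most correlated with each receptor. Markers of other cells (those at 0 in every library, and those that carry or define a sum) and Pdzk1, an overlapping gene, were named outside this rule, after their values were seen. A sort marker and a list of markers of other cells are not reported here. Numbers of mice follow accession order and pair nothing. The reads carry no molecular identifiers, so limits of 3 counts and Poisson intervals cover counting error only, and total counts of 313524 to 1901374 limit precision for low genes.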

Additional observations from a re-analysis of the deposited data

Results flagged for a closer look

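Of 32 sets of values examined (10 receptors and 6 ratios in each group), 5 held a library far from the rest of its group by Dixon's criterion. A rate of about 1 in 20, or 1.6 sets, holds for normal values of equal precision. These libraries differ in depth and low genes vary by counting error, so 5 beside 1.6 does not measure an excess. Pdcd1 was read at 592 CPM in untreated mouse 4, while the remaining 4 of that group lay between 719 and 767 CPM. Untreated mouse 4 was the single untreated library of primer barcode 8, and the anti-LAG-3 libraries of that barcode lay at 555 to 588 CPM. The part of the barcode in this value was not tested. Tigit was read at 489 CPM in anti-LAG-3 mouse 4, against 615 to 685 CPM in the other 5. Havcr2 was read at 19.8 CPM (6 counts) in untreated mouse 2, against 1.88 to 5.12 CPM. Cd101 was read at 33.0 CPM (10 counts) in the same library, against 20.5 to 23.1 CPM. This library had 317449 counts and was the single one with primer barcode 10. The log2 ratio of Cd96 to Cd226 was 0.08 in anti-LAG-3 mouse 2, against -0.33 to -0.18 in the other 5.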

How the results depend on the processing

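Under each alternative run, 0 receptors had an adjusted p under 0.05. Genes called over the whole table numbered 3 with no filter and 0 to 2 when 1 library was left out (2 without anti-LAG-3 mouse 2), and those at an unadjusted p under 0.05 numbered 163 with DESeq2, 1095 with no filter and 425 in barcode 9. Pdcd1, Cd200 and unfiltered Entpd1 stayed below 0 and Btla, Ctla4 and Cd101 above 0 in every alternative that gave a value. Btla and Cd101 did not pass the stricter filter. Library sizes over all symbols moved no tested receptor's log2 fold change beyond rounding. In barcode 9 the log2 fold change turned for Cd160 (0.091), for unfiltered Havcr2 (0.17, and 0.042 with barcode as covariate), and for the ratios of Ctla4 to Cd28 (-0.053) and Cd160 to Tnfrsf14 (0.18). Farther from 0 in barcode 9, with the same sign, were Cd101 (0.39), Cd96 (-0.11, as with barcode as covariate), Btla to Tnfrsf14 (0.73) and Cd96 to Cd226 (-0.48). With 1 library left out, values spanned 0 for Tigit (-0.026 to 0.076), Cd160 (-0.087 to 0.002), Cd96 (-0.12 to 0.09), Lag3 (-0.082 to 0.022), unfiltered Havcr2 (-0.79 to 0.051) and Ctla4 to Cd28 (-0.053 to 0.11). Without single libraries Cd200 moved to -0.12 (untreated mouse 3) and Ctla4 to 0.076 (anti-LAG-3 mouse 2), and Btla to Tnfrsf14 ranged from 0.036 to 0.48 and Cd160 to Tnfrsf14 from -0.50 to -0.082. The cause was not tested. The combined unfiltered fits of Havcr2 and Entpd1 were added after seeing the data. No paired analysis was possible because no replicate number in the labels is shared between groups. Primer barcodes 8 and 9 are shared and were used as above. A further number in the labels, whose meaning the labels do not state, is shared by untreated mice 2 and 3 and anti-LAG-3 mouse 5. Untreated mice 4 and 5 share another such number. These numbers pair no samples one to one between the groups, and their part in the results was not tested.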

Other observations

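Transcription factors that act on inhibitory receptor genes were read from a list of 14, of which 11 were tested. Tox, a factor of the exhaustion program, ranged from 105 to 165 CPM without and from 142 to 208 CPM with the antibody, with a log2 fold change of 0.32 (edgeR unadjusted p = 0.0183, adjusted p = 0.999). It was the single gene of the 11 past the unadjusted threshold, beside 3.73% of all genes tested. Tbx21, encoding T-bet, had a log2 fold change of 0.25 (unadjusted p = 0.122). Of 7 genes of terminally exhausted cells, 6 were tested and 0 passed, with Tnfrsf9 at -0.23 and Gzmb at -0.29. Their sum lay at 878 to 1063 CPM of total counts in untreated and 708 to 940 CPM in anti-LAG-3 mice, a log2 difference of -0.19 (exact permutation p = 0.0649, 0.519 after adjustment over 8 lists). Its part in the values of the receptors was not tested.

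Over the 11 libraries, the gene whose log2 CPM was most like each receptor's was B4galt1 for Pdcd1 (r = 0.94), Wdr82 for Ctla4 (r = 0.80), Ppat for Tigit (r = 0.90) and Inpp5b for Cd160 (r = 0.94), with Spearman rho from 0.74 to 0.95 for these. It was Lyrm2 for Btla (r = 0.84), Zan for Cd200 (r = 0.89), Plin2 for Cd96 (r = 0.94) and Herpud1 for Cd101 (r = 0.94), with rho of 0.79, 0.93, 0.66 and 0.55 in that order. Cd101 has a library at 0, and what single libraries add to these r values was not tested. Each is the highest of 6949 genes and is given as a description. The libraries differed in depth and primer barcode, and low genes such as Zan rest on few counts.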
